A study of Homo sapiens with 4 samples.

Results

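H2AK119ub peaks of wild-type H1 cells that were far from protein-coding genes and also present after YTHDF1 knockdown are described here. A wild-type (WT) peak was taken when it lay on chromosomes 1 to 22, had at least 1 base in common with a peak of the YTHDF1 knockdown (KD) list, and was more than 50 kb from the span of every protein-coding gene. The rule chose 1647 regions, out of 32798 peaks in the WT list and 23208 shared WT peaks on those chromosomes. They are called shared far peaks below. They were chosen by the overlap of the KD and WT peaks. That overlap is not a finding, and every width below comes from the same pair of lists, so widths are given as a description with no test.

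H1 is an established line of human embryonic stem cells, grown here in mTeSR1 medium. The KD cells carried the label of treatment with an shRNA against YTHDF1, and the WT cells were labelled untreated, with no label of a control shRNA. Each group had 1 library made with an antibody to H2AK119ub and 1 input library, and the inputs were not analysed here. Peak lists hold no expression values, so neither the depletion of YTHDF1 nor stem cell markers could be checked.

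H2AK119ub is histone H2A with a single ubiquitin on the lysine that its name gives, placed by Polycomb repressive complex 1 through its RING1 or RNF2 subunit. The mark covers CpG islands and the surroundings of silent developmental genes in embryonic stem cells, and it can reach into the long stretches without protein-coding genes that often flank such genes and hold their enhancers. Those stretches also hold genes of long non-coding RNAs (lncRNAs), microRNAs and tRNAs. YTHDF1 is a cytoplasmic reader of N6-methyladenosine on RNA that is known for promoting translation of the transcripts it binds.

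The sequences of 3 mature microRNAs are printed first because their genes lay inside shared far peaks and their products are well known in particular tissues. They are RefSeq sequences on GRCh38.p14, written 5′ to 3′, with the seed, bases 2 to 8, in capitals. The miR-1-3p sequence lies at chr20:62554351-62554372 on the plus strand, miR-133a-3p at chr20:62564970-62564991 on the plus strand, and miR-148a-3p at chr7:25949922-25949943 on the minus strand. miR-1 and miR-133a are made together in heart and skeletal muscle, and miR-148a is abundant in liver.
miR-1-3p: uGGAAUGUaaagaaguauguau
miR-133a-3p: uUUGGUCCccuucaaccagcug
miR-148a-3p: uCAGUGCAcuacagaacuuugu
The seeds of these 3 differ, and none of the 11 mature sequences found for genes under shared far peaks has the seed of another.

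Promoter windows of 5 lncRNA genes follow. Each runs from 250 bases before to 50 bases after the annotated start (RefSeq, GRCh38.p14), lies whole inside a shared far peak and a KD peak, and has its CpG dinucleotides in capitals. The first 4 were CpG-rich, meaning over 50% G and C with an observed to expected CpG ratio over 0.6. The last, from the widest shared far peak of all, was not. The windows are at chr13:50125492-50125791 on the minus strand for DLEU2, chr1:90835413-90835712 on the plus strand for LINC02788, chr7:155381826-155382125 on the plus strand for LINC03010, chr9:129320766-129321065 on the plus strand for LINC02913, and chr22:22098657-22098956 on the minus strand for LOC102724653.
DLEU2: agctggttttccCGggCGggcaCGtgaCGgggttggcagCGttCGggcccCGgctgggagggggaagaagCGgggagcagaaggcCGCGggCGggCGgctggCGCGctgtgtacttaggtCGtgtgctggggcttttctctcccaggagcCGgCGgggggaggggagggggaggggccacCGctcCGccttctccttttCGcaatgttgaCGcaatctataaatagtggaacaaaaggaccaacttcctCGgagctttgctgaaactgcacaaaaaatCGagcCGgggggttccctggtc
LINC02788: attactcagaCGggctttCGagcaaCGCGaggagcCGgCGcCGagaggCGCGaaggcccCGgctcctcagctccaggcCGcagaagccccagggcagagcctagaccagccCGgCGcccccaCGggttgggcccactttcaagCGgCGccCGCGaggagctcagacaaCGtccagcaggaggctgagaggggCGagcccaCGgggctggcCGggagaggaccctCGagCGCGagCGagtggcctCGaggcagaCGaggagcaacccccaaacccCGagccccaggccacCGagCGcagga
LINC03010: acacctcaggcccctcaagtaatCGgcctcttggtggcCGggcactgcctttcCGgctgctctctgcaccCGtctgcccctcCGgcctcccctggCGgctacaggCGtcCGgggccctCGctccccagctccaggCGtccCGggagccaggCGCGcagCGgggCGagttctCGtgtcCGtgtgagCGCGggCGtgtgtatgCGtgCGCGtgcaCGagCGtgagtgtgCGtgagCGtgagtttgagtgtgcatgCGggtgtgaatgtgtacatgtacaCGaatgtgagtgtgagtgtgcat
LINC02913: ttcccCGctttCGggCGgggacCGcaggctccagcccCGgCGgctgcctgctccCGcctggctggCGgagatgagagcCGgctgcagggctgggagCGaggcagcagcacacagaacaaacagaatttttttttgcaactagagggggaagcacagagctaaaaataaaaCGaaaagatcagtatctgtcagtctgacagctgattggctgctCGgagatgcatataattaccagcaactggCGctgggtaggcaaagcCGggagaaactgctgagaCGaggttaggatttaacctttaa
LOC102724653: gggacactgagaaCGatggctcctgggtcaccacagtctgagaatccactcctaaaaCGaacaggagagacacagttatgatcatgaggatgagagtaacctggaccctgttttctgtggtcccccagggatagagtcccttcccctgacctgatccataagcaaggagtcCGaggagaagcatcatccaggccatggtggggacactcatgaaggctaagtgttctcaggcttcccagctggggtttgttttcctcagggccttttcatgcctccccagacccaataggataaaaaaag
These windows held 24, 31, 29, 15 and 3 CpG dinucleotides in the order printed. They were picked for their CpG class, so their spread is no result.

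Shared far peaks covered 7846 kb in the KD list and 8965 kb in the WT list. Their median width was 3.6 kb for the 1731 KD peaks that touched them and 4.4 kb for the WT peaks, which ran between 0.4 and 64 kb. Wide peaks were fewer than among shared peaks in general: 8.74% of the shared far peaks were at least 10 kb wide in WT, against 15.5% of all shared WT peaks. The authors' deposited score, of unstated unit, placed the median shared far peak at the 50.7th percentile of the WT list and the median of all shared WT peaks at the 63.0th. A score of 1000, the highest value in either list, was held by 12 of the KD peaks that touched the regions and by 20 of the WT peaks.

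The shared portion of peaks was lower far from protein-coding genes than at large, in both lists. Of the far peaks, 57.0% were shared in the KD list (of 3087) and 57.7% in the WT list (of 2856). Over all of chromosomes 1 to 22 these shares were 74.1% of KD peaks and 71.5% of WT peaks. The share followed the score: among WT peaks scoring 5 to 10, 43.4% of the far ones and 48.8% of the others were shared, and from 20 to 50 the shares were 83.8% and 90.9%. From 100 up, all 78 far WT peaks had a KD partner. At each score range below 100 the far share was the lower of the pair.

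Within the shared far peaks, 67.4% of the WT bases also lay in KD peaks, against 74.6% in shared peaks up to 50 kb from a gene and 75.4% in those in or within 2 kb of one. KD peaks were narrower than the WT peak at 863 regions, wider at 708 and equal at 76. The narrower regions were 52.4% of the total, next to a background of 52.2% over all shared WT peaks. The median ratio of summed KD width to WT width was 0.947, close to the 0.957 of all shared peaks. Over all widths, the regions were thus close to the background on the count and the median ratio, and lower on the shared bases. At like WT width the median ratio was lower than at shared peaks nearer to genes in each range. It was 1.71 against 2 up to 2 kb and 1.09 against 1.14 at 2 to 4 kb. At 4 to 8 kb it was 0.818 against 0.857, at 8 to 16 kb 0.729 against 0.844, and above 16 kb 0.927 against 0.938. The share narrower in KD cells was likewise higher in each width range. At like WT score the gap in shared bases was smaller. At scores of 5 to 10, 57.8% of the bases of shared far peaks lay in KD peaks against 62.2% for those nearer to genes. The shares were 61.9% against 64.1% at 10 to 20, 67.2% against 68.4% at 20 to 50, 72.9% against 74.9% at 50 to 100, and 86.9% against 85.8% from 100 up.

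Changes of at least 1.5-fold in width were counted next. KD width was at least 1.5-fold lower at 444 regions (27.0%, Wilson 95% interval 24.9% to 29.2%), against a background of 21.8% of all shared WT peaks and 21.4% of those up to 50 kb from a gene. It was at least 1.5-fold higher at 335 regions (20.3%, interval 18.5% to 22.4%), against backgrounds of 19.2% and 19.1%. Over all widths, the excess over the background was thus larger for narrower than for wider peaks. At like WT width, the narrower share was above that of shared peaks nearer to genes in each range. The wider share was 60.4% against 70.5% up to 2 kb and 30.1% in both at 2 to 4 kb. It was 9.97% against 11.2% at 4 to 8 kb, and higher at shared far peaks above 8 kb. By WT score, their narrower share was higher below 100 and lower from 100 up (6.41% against 7.35%). Their wider share was lower below a score of 20 and higher from 20 up. The Wilson intervals cover the counting of regions only, and with 1 library per group the spread between cultures is unknown. Counted from the KD list instead, 43.4% of the regions were narrower by that factor and 10.6% wider, so both shares depend on the list that is counted. The background over all shared peaks was not counted from the KD list.

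**Figure D1:**
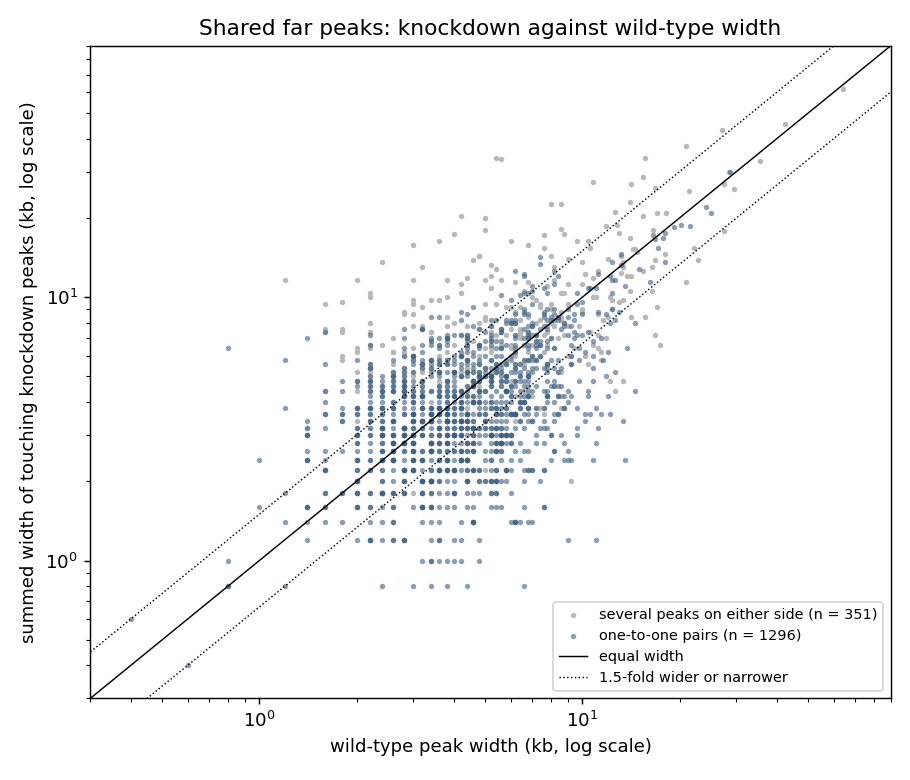
Each point is 1 shared far peak, with its WT width (kb, log scale) on the horizontal axis and the summed width of the KD peaks that touch it (kb, log scale) on the vertical axis. Dark points are the 1296 one-to-one pairs, of which 752 lie under the solid line of equal width and 475 over it, and grey points are the 351 regions where several peaks meet. Over all shared WT peaks, 10032 of 16791 one-to-one pairs were narrower in KD cells.

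Single KD peaks met single WT peaks at 1296 regions (78.7%), against 72.4% over all shared WT peaks. Across these pairs the peaks summed to 5497 kb in KD cells and 6348 kb in WT cells. The median KD to WT ratio was 0.884 here, close to the 0.889 of all one-to-one pairs of shared peaks. KD width was lower at 752 pairs, higher at 475 and equal at 69. Over all 16791 one-to-one pairs it was lower at 10032, higher at 6013 and equal at 746. Of the pairs, 30.8% were at least 1.5-fold narrower and 14.4% at least 1.5-fold wider in KD cells, against 26.9% and 11.7% of all one-to-one pairs.

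WT peaks met several KD peaks at 179 regions (10.9%, against 14.9% of all shared WT peaks). One KD peak bridged a shared far peak and another WT peak at 240 (14.6%, against 18.5%). The WT peak lay whole inside KD peaks at 301 regions (18.3%, against 18.5% of all shared WT peaks). The edges were the same in both lists at 14 of the 1647 regions and at 144 of the 23208 shared WT peaks. The median gap to the next WT peak was 7.8 kb, against 14.6 kb for far WT-only peaks and 4.4 kb for shared peaks nearer to genes.

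The overlap was similar over the distances up to 500 kb and lower beyond. The 793 regions at 50 to 100 kb, 646 at 100 to 250 kb and 136 at 250 to 500 kb had 68.3%, 66.8% and 68.2% of their WT bases in KD peaks. The 72 regions beyond 500 kb had 59.7%. Their median KD to WT ratio was 0.754, against 0.967 at 50 to 100 kb. Of these 72, 30 (41.7%, Wilson 95% interval 31.0% to 53.2%) were at least 1.5-fold narrower in KD cells, against 25.7%, 27.1% and 25.7% in the nearer ranges and 21.8% of all shared peaks. At least 1.5-fold wider were 2 (2.78%, interval 0.765% to 9.57%), against 21.6%, 20.4% and 22.1% in the nearer ranges and 19.2% of all shared peaks. No KD peak bridged any of the 72, while 140 of the regions at 50 to 100 kb were bridged. Among one-to-one pairs, where bridging has no part, the median ratio was 0.781 beyond 500 kb and 0.895 at 50 to 100 kb. The WT score was also lower farther out, with medians of 17.6 at 50 to 100 kb and 14.8 beyond 500 kb, and its part in the widths was not tested. The distance ranges were set after values had been seen.

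**Figure D2:**
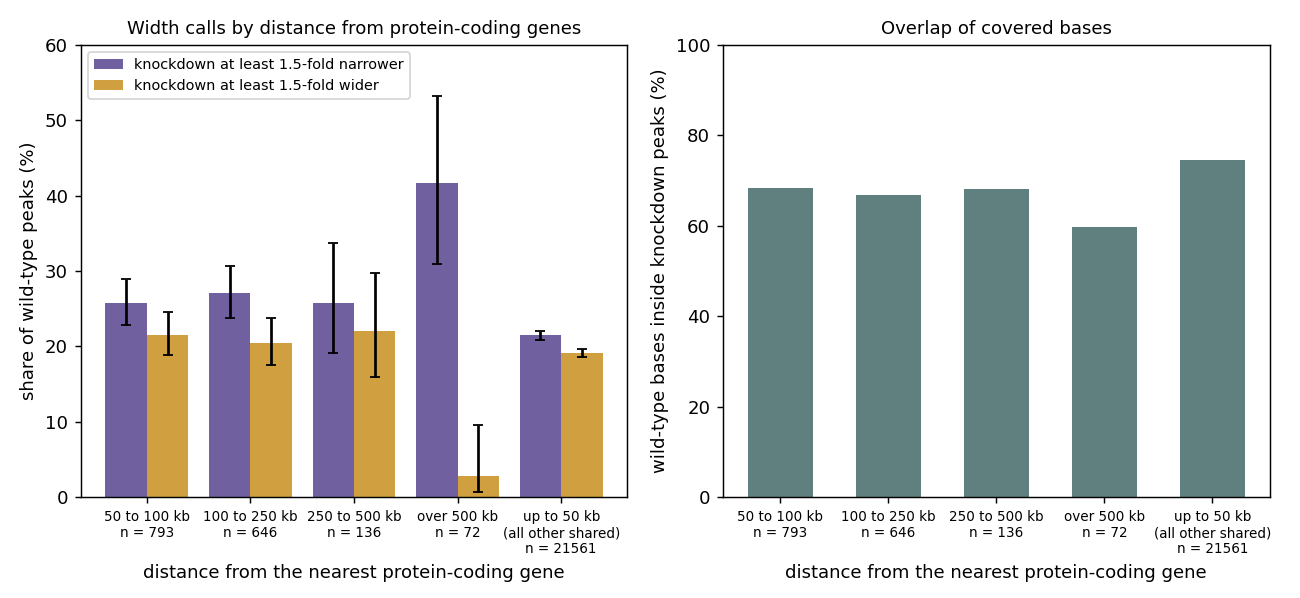
The left plot gives the share (%) of shared WT peaks whose KD width was at least 1.5-fold lower or higher, by distance from the nearest protein-coding gene, with Wilson 95% intervals as bars; the right plot gives the share (%) of their WT bases inside KD peaks. The 72 regions beyond 500 kb stand apart, with 41.7% narrower, 2.78% wider and 59.7% of bases kept, and the last group is all 21561 other shared peaks.

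The 5 farthest regions were all one-to-one pairs, with WT widths between 2.8 and 7.2 kb. At chr19:27751601-27754800, 1450.52 kb from UQCRFS1, the peak was 2.2 kb in KD cells and 3.2 kb in WT cells. The next, at chr19:27771201-27775000 and 1430.32 kb from the same gene, measured 4.4 kb in KD and 3.8 kb in WT cells, and 10.5% of its WT bases lay in the KD peak. Both lie between ZNF254, a zinc finger gene, and UQCRFS1, which encodes the Rieske subunit of respiratory complex III. At chr4:180056801-180061800, 1385.81 kb from the adhesion and guidance gene TENM3, the widths were 4.4 kb in KD and 5 kb in WT cells. The region 1306.27 kb from TMEFF2 measured 3 kb in KD and 2.8 kb in WT cells. Far from GATA3, a transcription factor gene of T cells and the inner ear, the region at chr10:9095201-9102400 (1020 kb away) had 2.8 kb in KD cells and 7.2 kb in WT cells. Of these 5, then, 3 were narrower and 2 wider in KD cells.

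Next to the limit of 50 kb, the regions just inside were narrower in KD cells and the shared peaks named just outside were wider. They are too few to compare the sides. Just inside, the regions 50.018 kb from KDM7A, 50.113 kb from FOXL3 and 50.158 kb from TPST1 measured 6.6, 3.6 and 3 kb in KD cells and 6.8, 7.2 and 4 kb in WT cells. Just outside, shared peaks 49.946 kb from the nearer of OBP2B and SURF6 and 49.932 kb from the nearer of CRYBA4 and MN1 measured 8.6 and 5.6 kb in KD cells and 5.6 and 3.4 kb in WT cells.

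The 10 widest regions, ranked by WT width, had between 64.96% and 100% of their WT bases in KD peaks. The widest lay in the immunoglobulin lambda locus at chr22:22050801-22114800, between TOP3B and VPREB1, and measured 61.8 kb over 3 KD peaks and 64 kb in WT cells. It covers V segments, which RefSeq does not class as protein-coding, and the LOC102724653 promoter shown above. Near ADRA2C, which encodes an alpha-2 adrenergic receptor, the region at chr4:3845601-3881000 had 32.8 kb in KD and 35.4 kb in WT cells with no annotated gene beneath it. Near NR2F2, a nuclear receptor gene of mesoderm and vein development, chr15:96398001-96423000 held 20.8 kb in KD cells and 25 kb in WT cells. Around LINC01574, between TSPAN17 and the netrin receptor gene UNC5A, the widths were 27 kb over 4 KD peaks, of which 1 or more also touched another WT peak, and 27.4 kb in WT cells. These pairs differed by at most a few kb.

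A larger difference was found between FGFR1, a fibroblast growth factor receptor gene, and TACC1, with 17.8 kb in KD cells against 27.4 kb in WT cells. Between NCR2 and the forkhead gene FOXP4, the 2 KD peaks that touched 1 of the 10 widest regions summed to 43.2 kb against its 27 kb in WT cells, but 1 of them also bridged a neighbouring shared far peak. Both regions of that stretch together measured 43.2 kb in KD cells and 42.4 kb in WT cells. A pair of the widest regions lay in 1 stretch beyond IER5L, an immediate early response gene: 25.8 kb over 4 KD peaks against 29.4 kb in WT cells, and 29.8 kb in KD against 28.6 kb in WT cells. That stretch also holds the LINC02913 promoter, where 3 KD peaks summed to 37.4 kb against 21 kb in WT cells, with a further WT peak under the same KD peaks. The 9 shared far peaks of the stretch measured 143.2 kb in KD cells and 136.4 kb in WT cells.

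Among one-to-one pairs, the 5 largest decreases each exceeded 8 kb. In the immunoglobulin lambda locus between GGTLC2 and IGLL5 the peak measured 2.4 kb in KD and 13.6 kb in WT cells. Between SIRPG and SIRPA, genes of signal regulatory receptors, it measured 4.4 kb in KD and 14.6 kb in WT cells. The others were beyond PODXL (3.4 kb in KD, 13.4 kb in WT), between RBM19 and TBX5 (1.2 kb in KD, 11 kb in WT) and between GLI2 and TFCP2L1 (3.6 kb in KD, 12.2 kb in WT). PODXL encodes the sialomucin podocalyxin, a surface protein of pluripotent cells, and TFCP2L1 a factor of naive pluripotency.

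The 5 largest increases were smaller in kb. KD peaks took in the whole WT peak in each. They lay beyond WNT4 (14.2 kb in KD, 7.4 kb in WT), FGF18 (12.6 kb in KD, 6.2 kb in WT), between TBX5 and TBX3 (13.4 kb in KD, 7.4 kb in WT), at LHX1-DT (7.4 kb in KD, 1.6 kb in WT) and at LINC01169 near SMAD6 (12.2 kb in KD, 6.6 kb in WT). WNT4 and FGF18 encode secreted signals, TBX5 and TBX3 are limb and heart T-box genes, and SMAD6 encodes an inhibitor of BMP signalling. The gene TBX5 thus had a region on one side among the largest decreases and a region on its other side among the largest increases.

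Shared far peaks were gathered in few stretches. Of 2672 stretches of over 100 kb between protein-coding genes, 673 (25.2%) held any, 369 of them only 1, and 81 held 5 or more. Those 81 held 682 regions, 41.4% of the total. The longest stretches were the sparsest: 0.524 regions per Mb of far sequence lay in the 297 stretches of over 1 Mb, against 3.02 per Mb in shorter ones. Centromeres and unsequenced parts of the assembly were left in the far sequence, and their part in this difference was not tested. Across the 81, summed KD width was below WT width in 58 and above it in 23, with KD to WT ratios between 0.494 (ACTL8 to IGSF21) and 1.37 (CDC5L to SUPT3H) and a median of 0.850. Summed width was lower in KD cells in general: 140545 kb against 159684 kb in WT cells over all shared peaks. Over all shared far peaks it was 7846 kb in KD and 8965 kb in WT cells.

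The stretch with the most, 26, ran from POU3F1, a POU factor gene of neural and glial lineages, to RRAGC, a nutrient-sensing GTPase gene (chr1:38046794-38838197). They measured 118.4 kb in KD cells and 155.8 kb in WT cells, and 59.4% of the WT bases lay in KD peaks. Unshared peaks more than 50 kb from genes were interspersed, 9 in KD cells alone and 18 in WT cells alone. Next came 22 regions between INHBB, an activin subunit gene, and GLI2, a transcription factor gene of Hedgehog signalling (chr2:120351804-120735867), with 146.6 kb in KD and 181.8 kb in WT cells. There, 1 such peak was found in KD cells alone and 2 in WT cells alone, so nearly all of the far peaks of that stretch were shared.

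From the lens crystallin gene CRYBA4 to MN1, 20 regions measured 101.8 kb in KD and 127.8 kb in WT cells. Between the myeloid factor gene IRF8 and FOXF1, a forkhead gene of lung mesenchyme, 17 regions measured 90.4 kb in KD and 96.6 kb in WT cells, with 76.6% of the WT bases kept. Another 17 lay between CD83 and JARID2, which encodes a cofactor of Polycomb repressive complex 2, at 68.8 kb in KD and 70.4 kb in WT cells. All 5 of these stretches were thus lower in KD cells in summed width, as were all shared peaks together. Their KD to WT ratios lay between 0.760 (POU3F1 to RRAGC) and 0.977 (CD83 to JARID2).

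**Figure D3:**
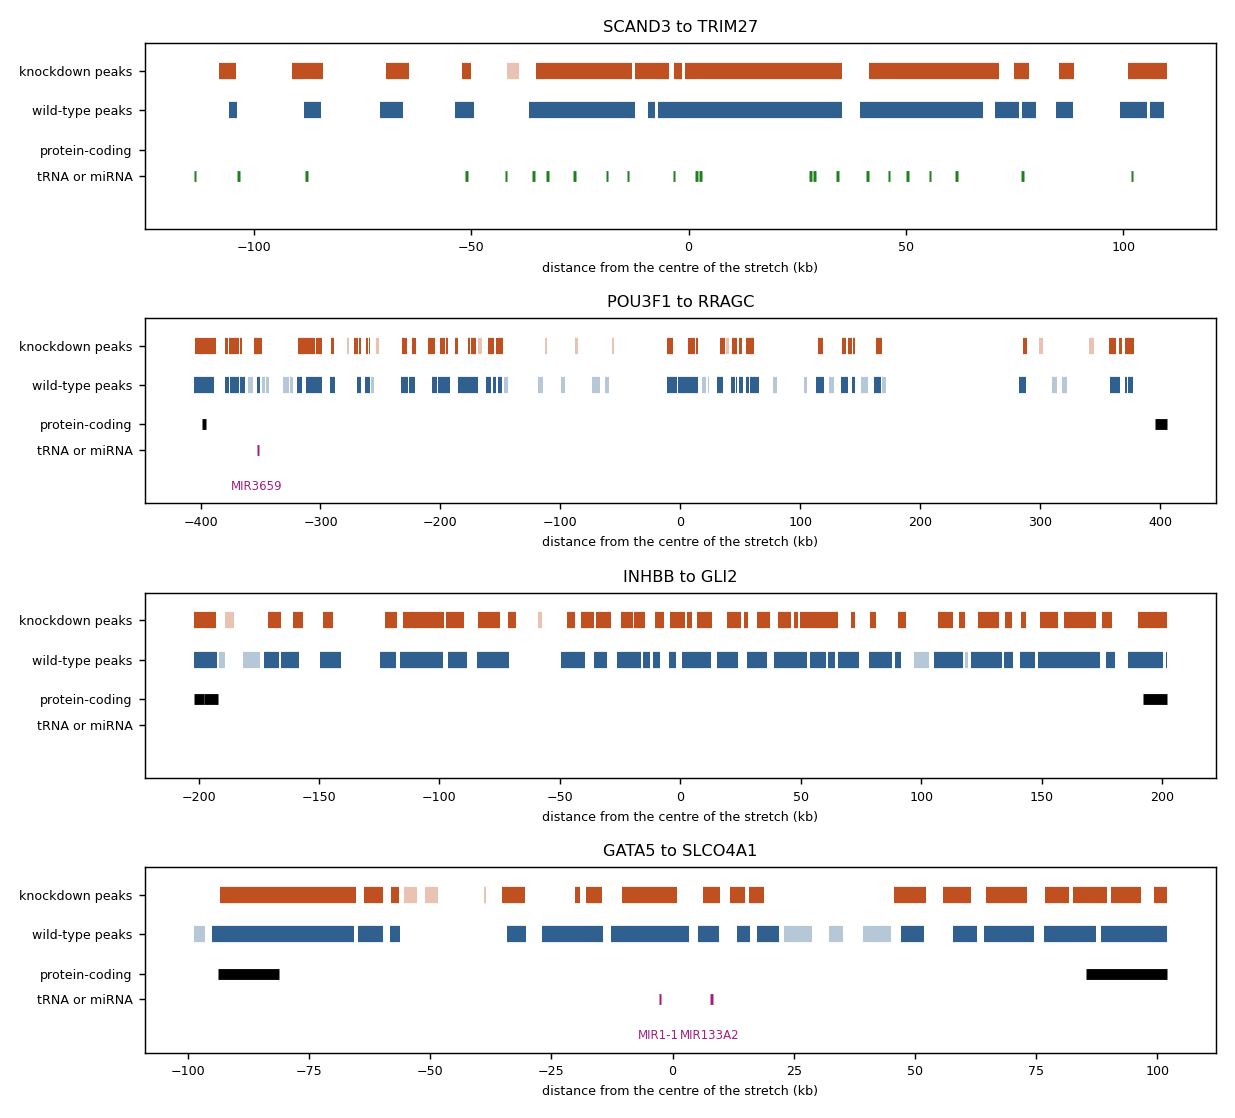
Peaks of the KD list (upper row, orange) and the WT list (second row, blue) in 4 stretches, against distance from the middle of the stretch (kb). Dark bars share bases with the other list and pale bars do not, black marks are protein-coding genes, green marks tRNA genes and purple marks microRNA genes. Between INHBB and GLI2 nearly every bar is dark, while pale bars are scattered between POU3F1 and RRAGC, where 9 KD and 18 WT peaks more than 50 kb from genes were unshared.

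The genes that flanked shared far peaks were counted by gene list. A gene flanked a region when it was the nearest protein-coding gene on either side, which was so for 1253 of 18973 genes (6.60%), or 28.6% of the 4381 that border a stretch of over 100 kb. Of 225 developmental transcription factor genes, 85 did (37.8%, and 52.5% of those that border such a stretch). POU3F1 (26 regions), FOXF1 (17), TFAP2C (14) and FOXD2 (14) had the most. Regions beside TFAP2C, a trophoblast and germ cell factor gene, measured 69.4 kb in KD and 80.4 kb in WT cells, and those beside the forkhead gene FOXD2 60.2 kb in KD and 72.2 kb in WT cells.

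Of 101 genes of morphogens, growth factors and receptors, 27 flanked a region (46.6% of those bordering a long stretch), led by GLI2 (24 regions), INHBB (22), BMP7 (14) and the Notch ligand gene DLL1 (9). The 22 INHBB regions are among the 24 of GLI2, and the 14 BMP7 regions are those counted above for TFAP2C. The DLL1 regions measured 47.2 kb in KD and 53 kb in WT cells. Of 83 genes of cell adhesion and axon guidance, 31 did (42.5% of those bordering), led by CADM1 (16), RGMA (6), NTM (4) and SEMA6A (4). CADM1 encodes an immunoglobulin-type adhesion molecule, and its regions measured 71.8 kb in KD and 97.2 kb in WT cells.

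The other lists varied. Neuronal channel and receptor genes flanked regions in 20 of 86 cases (28.2% of those bordering, against 28.6% of all such genes). Of 25 pluripotency genes, 10 border such a stretch and 5 flanked a region, led by PODXL (8 regions, 33 kb in KD and 46.6 kb in WT cells), OTX2 (4 regions, 36.6 kb in KD and 37.6 kb in WT cells), PRDM14 and KLF4. Zinc finger genes did in 26 of 546 cases (4.76%, and 25.7% of those bordering), ZNF184 with 10 regions. Olfactory receptor genes did in 1 of 388 cases (3.23% of the 31 bordering). Housekeeping genes did in 2 of 28 (7.14%, against 6.60% of all genes), YWHAZ and TFRC. Only 2 housekeeping genes border such a stretch. These counts describe position only, since a gene beside a long stretch can flank a region that has no part in its control.

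Non-coding genes or pseudogenes lay under 687 of the regions (41.7%) and lncRNA genes under 619 (37.6%). WT-only peaks equally far from protein-coding genes overlapped a non-coding gene or pseudogene in 36.6% and a lncRNA gene in 32.1% of cases. The WT-only peaks were also narrower, with a median of 3.4 kb against 4.4 kb, and the part of width in this difference was not tested. Seen from the genes, 391 of 5186 far lncRNA genes (7.54%) touched a shared far peak, against 50 of 3933 far pseudogenes (1.27%), 12 of 257 far microRNA genes (4.67%) and 36 of 114 far tRNA genes (31.6%).

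The tRNA genes were concentrated on chromosome 6, where 33 of 66 far tRNA genes touched a region, against 3 of 26 on chromosome 1 and 0 of 13 on chromosome 7. Chromosome 6 carries a large tRNA gene cluster near the histone genes and the major histocompatibility complex. Between SCAND3 and TRIM27 (chr6:28616203-28903001), 10 regions measured 118.8 kb in KD cells and 122.8 kb in WT cells, with 87.1% of the WT bases kept and 18 of the 26 tRNA genes between them under a region. The widest measured 45.6 kb over 3 KD peaks and 42.4 kb in WT cells at chr6:28755001-28797400, over genes for alanine and phenylalanine tRNAs. The next, at chr6:28801401-28829800, measured 30 kb in KD and 28.4 kb in WT cells. At both, a KD peak also touched another WT peak. Both scored 1000 in both lists. All 17 regions that overlapped a tRNA gene had 83.7% of their WT bases in KD peaks, and they were listed after their values were seen. Copies of tRNA genes are near-identical, and the sources used here do not say how reads that map to several copies were placed.

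In the stretch from ZNF184 to H2BC13, a histone H2B gene, 10 regions measured 45.8 kb in KD cells and 54.4 kb in WT cells, with 64.0% of the WT bases in KD peaks. Single regions there varied. The one over TRS-TGA2-1 and TRQ-CTG2-1 measured 5.2 kb in KD and 5.6 kb in WT cells, that over TRI-AAT8-1, TRR-ACG2-4 and TRS-CGA3-1 measured 9 kb in KD and 6.6 kb in WT cells, and that over TRT-AGT2-2 and TRI-AAT2-1 measured 2.6 kb in KD and 6.8 kb in WT cells.

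Genes of 12 microRNAs lay under the regions. The muscle microRNA gene MIR1-1, whose product is printed above, lay in a peak of 11.4 kb in KD and 16.2 kb in WT cells at chr20:62544401-62560600, and MIR133A2 in the next, of 3.6 kb in KD and 4.4 kb in WT cells. Both sit inside the host gene MIR1-1HG between GATA5, a cardiac and endodermal factor gene, and SLCO4A1. The other 3 regions of that stretch measured 4.4, 6.2 and 3 kb in KD cells and 12.6, 2.6 and 4.6 kb in WT cells. The regions of 6.2 and 3 kb in KD cells touched the same KD peak of 3 kb, which is counted at both. With each KD peak counted once, the 5 regions summed to 25.6 kb in KD cells and 40.4 kb in WT cells.

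The genes MIR124-1 and MIR124-2, for the brain microRNA miR-124, lay under wide peaks of nearly equal size on chromosome 8: 13.2 kb in KD and 13.2 kb in WT cells for MIR124-1, and 17.6 kb in KD and 18 kb in WT cells for MIR124-2. MIR148A lay under 3.2 kb in KD and 4.2 kb in WT cells. Peaks were slightly wider in KD cells at MIR6080 (12.2 kb in KD, 11.2 kb in WT), MIR4277 (9 kb in KD, 8.2 kb in WT) and MIR663A (3 kb in KD, 2.6 kb in WT). They were narrower at MIR4425 (2.2 kb in KD, 3.6 kb in WT), MIR4472-2 (1 kb in KD, 4.2 kb in WT), MIR5087 (1.2 kb in KD, 2.8 kb in WT) and MIR6077 (2.4 kb in KD, 2.6 kb in WT). Of the 12 genes, 9 had a mature sequence in the RefSeq entries used.

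Promoter windows of lncRNA genes differed in base composition with the lists that held them. Distance from protein-coding genes was here taken from the window, not from the gene span as in the counts of far genes above. DLEU2, whose span overlaps a protein-coding gene, thus had a far window. Of 3442 lncRNA genes with a far window, 158 (4.59%) had it whole inside peaks of both lists, 66 in the KD list alone, 86 in the WT list alone and 3132 in neither. The median window held 13.5 CpG dinucleotides where both lists held it, 5 in the KD list alone, 5 in the WT list alone and 2 in neither. CpG-rich windows were 38.6%, 7.58%, 8.14% and 4.76% of these groups. Among the 222 CpG-rich far windows, 61 (27.5%) lay in peaks of both lists, against 1717 of 2468 (69.6%) CpG-rich lncRNA windows nearer to protein-coding genes. CpG-rich windows were thus a larger share where both lists held the window, yet 149 (67.1%) of the far CpG-rich windows lay in neither. Definitions of CpG-richness were set after values had been seen.

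**Figure D4:**
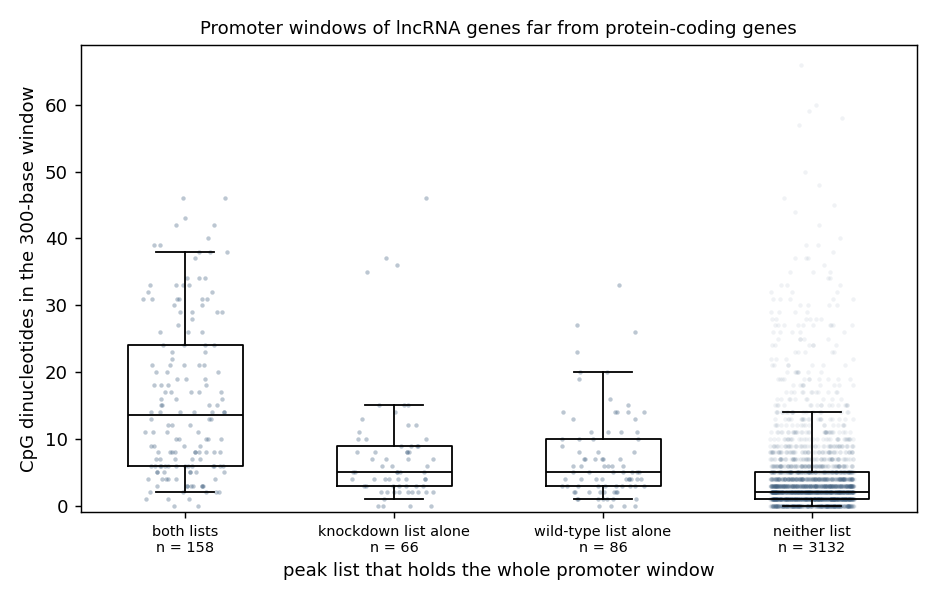
CpG dinucleotides in the 300-base promoter windows of lncRNA genes whose window is far from protein-coding genes (vertical axis), by the peak lists that hold the whole window. Points are genes, boxes span the quartiles with the median as a line, and whiskers reach the 5th and 95th percentiles; the 158 windows in both lists have a median of 13.5, against 5, 5 and 2 in the other groups.

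Wide peaks hold whole windows more readily, so the width and score of regions with such promoters follow in part from the choice. The 161 regions that held a whole lncRNA promoter window had a median WT width of 5.6 kb and a median WT score of 31.3, against 4.4 kb and 15.9 for the other 1486. Of their WT bases, 72.5% lay in KD peaks, against 66.6%. For the 51 with a CpG-rich window the share was 78.2%. Of these 51, 11 (21.6%) were at least 1.5-fold narrower and 3 (5.88%) at least 1.5-fold wider in KD cells, against 27.0% and 20.3% of all shared far peaks. At DLEU2, whose locus is lost in chronic lymphocytic leukaemia, the peak measured 18.4 kb in KD and 19.2 kb in WT cells. LINC03010 near EN2, a homeobox gene of the midbrain and hindbrain, had 16.6 kb in KD and 16.8 kb in WT cells. LINC02788 near BARHL2, a homeobox gene of the retina and spinal cord, had 20.8 kb over 2 KD peaks and 17 kb in WT cells. LOC105378453 near LBX1, a homeobox gene of muscle precursors, had 20.8 kb in KD and 18.2 kb in WT cells. At both of these, a KD peak also touched another WT peak.

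Of 54 lncRNAs with roles in development or named after developmental neighbours, 17 lay more than 50 kb from protein-coding genes. Counted over all 54, near or far, 13 (24.1%) touched a shared far peak with some stretch of their span. These 13 are thus no subset of the 17, and DLEU2 among them overlaps the span of a protein-coding gene. PVT1 (8 regions), OTX2-AS1 (3), DLEU2 (2) and LHX1-DT (2) touched the most. Of 16 lncRNAs of pluripotent cells, 4 lay more than 50 kb away and 1 of the 16 touched a shared far peak, LINC01108. Of 2261 lncRNA genes with LINC symbols, 1209 lay that far. Over all 2261, near or far, 150 (6.63%) touched a shared far peak.

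Chromosomes differed in how densely they held shared far peaks. Chromosome 22 had 8.24 per Mb of far sequence, chromosome 17 had 3.86 and chromosome 4 had 0.445, against 1.59 over all. Far sequence here again includes centromeres and unsequenced parts, but only where they lie between protein-coding genes. Anything beyond the outermost protein-coding gene of a chromosome is left out. What this does to the densities of single chromosomes was not tested. Counts ran from 14 on chromosome 21 to 185 on chromosome 1. The share of WT bases kept in KD peaks lay below that of all shared peaks on 20 of 22 chromosomes. It was lowest on chromosome 11 (61.1%, against 73.0% for all shared peaks there). The exceptions were chromosome 14 (74.7% against 74.6%) and chromosome 21 (77.2% against 70.7%), which held 45 and 14 regions.

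**Figure D5:**
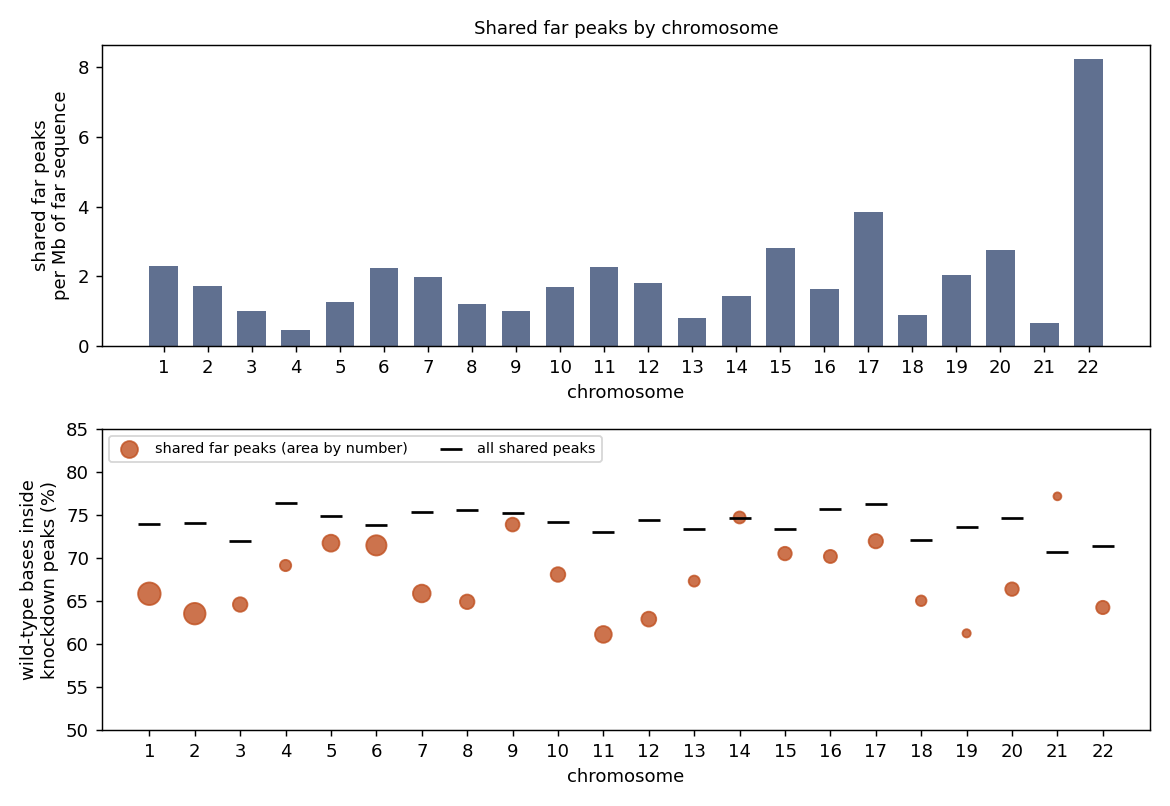
Upper plot: shared far peaks per Mb of sequence more than 50 kb from protein-coding genes, by chromosome. Lower plot: share (%) of the WT bases of shared far peaks (circles, area by number) and of all shared peaks (bars) inside KD peaks, on an axis that starts at 50%; circles lie below bars on 20 of 22 chromosomes.

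Far from genes, peaks were more numerous and narrower in KD cells, as over chromosomes 1 to 22. Far shared peaks numbered 1761 counted from the KD list and 1647 from the WT list, and covered 7.96 Mb in KD and 8.97 Mb in WT cells, a difference of -11.3%. Far unshared peaks numbered 1326 in KD cells and 1209 in WT cells and covered 3.95 Mb in KD and 4.29 Mb in WT cells, a difference of -7.92%. Over all peaks of chromosomes 1 to 22, covered length was 167 Mb in KD and 194 Mb in WT cells, a difference of -13.7%. The difference in covered length was thus slightly smaller far from genes than over the whole set. The depth of both libraries is unknown, its part in these differences was not tested, and a weaker mark in every cell cannot be told apart from a mark in fewer cells.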

How the data were processed

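Chromatin immunoprecipitation with an antibody to H2AK119ub was sequenced in 1 KD and 1 WT sample, and the authors deposited 1 peak list for each, with a chromosome, start, end, name and score per peak and no header. The score is the authors' own value per peak, of unstated unit, and it was used only to rank or filter peaks within a list. Per the submitters' processing notes, the build was hg38 and the tools named were SICER 1.1, MACS2 2.1.0, Bowtie2 2.2.5, Trimmomatic 0.35, Picard, and SAMtools 1.3.1. The notes give no role to any of them and do not say which caller made these lists, at what threshold, or with what use of the inputs. Peak starts were multiples of 200 bases and ends were read as inclusive, so 1-based positions are printed. Every width is a multiple of 200 bases, which limits its precision. With no read counts per peak, the depth is unknown. Samples were grouped by their labels.

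Distances were taken to the spans of 19821 protein-coding genes of a RefSeq gene table (GRCh38.p14, whose positions are those of hg38), after genes on scaffold coordinates were left out. That table has no strand or exons. The KD width of a region is the summed width of all KD peaks that share a base with it. A KD peak that bridges several WT peaks counts in full at each, and once in the sums over stretches and groups. Far sequence is what remains of stretches over 100 kb between protein-coding genes after 50 kb is taken from each end. Centromeres and unsequenced parts of the assembly within those stretches were not taken out of it. Sequence beyond the outermost protein-coding gene of a chromosome, with 25 of the regions, was left out of the densities. For lncRNA genes with several promoter windows, 1 window per gene was kept. Python 3.11.15 with numpy 2.4.6, pandas 2.3.3, scipy 1.17.1 and matplotlib 3.10.9 were used. The overlap and distance steps were tested on simulated data.

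The regions named are the 10 widest by WT width, the 5 largest decreases and 5 largest increases among one-to-one pairs, the 5 farthest from genes, the 3 nearest to the 50 kb limit on each side, the 5 stretches with the most regions, and every region over a microRNA gene. Up to 4 genes are named per gene list. Some items that these rules name are not reported here. Regions over tRNA genes and the promoters were added after values had been seen. The regions and gene lists were chosen with earlier results of these data known. With 1 library per group no test was possible, and a fold of 1.5 in width describes larger changes. Alternatives changed the distance limit, the overlap required, the score and width minimums, the list counted from, the genes that count and the pairs used.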

Additional observations from a re-analysis of the deposited data

How the results depend on the processing

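The number of shared far peaks moved from 1647 to 2762 at a limit of 25 kb, 854 at 100 kb, 1019 where both peaks had to share 50% of their bases, 599 in the upper 50% of each list by score, and 185 where the region had to be over 50 kb from genes of any kind. The median KD to WT ratio was 0.750 from the KD list and 0.884 in one-to-one pairs. The share narrower in KD cells was 67.6% from the KD list, 58.4% away from genes of any kind and 58.0% in one-to-one pairs. In the order 50% of both peaks, upper 50% by score, KD list, away from genes of any kind and one-to-one pairs, the share at least 1.5-fold narrower was 20.02%, 24.2%, 43.4%, 29.7% and 30.8%, and the share at least 1.5-fold wider 12.3%, 17.5%, 10.6%, 17.8% and 14.4%. Leaving out peaks under 2 kb made the narrower share 24.04%. A background over all shared peaks was counted only for one-to-one pairs, at 26.9% narrower and 11.7% wider by that factor. Under the other alternatives, whether these shares differ from the background was not tested. The share over a non-coding gene was 47.2% in the upper 50% by score and 0% away from genes of any kind, by construction. The share of WT bases in KD peaks was 77.4% with 50% of both peaks shared, 72.8% in the upper 50% by score and 63.2% away from genes of any kind. Median WT width became 6.4 kb in the upper 50% by score, 4.2 kb away from genes of any kind and 4.2 kb in one-to-one pairs. Except where the alternative's own construction fixes a value, the cause was not tested. Another 57 values stayed within limits set around the main value. These limits were, for example, 1098 to 2470.5 for the number of regions and 0.917 to 1 for the median ratio. The median KD to WT ratio stayed below 1 under every alternative. No such check of direction was made for the other results. The KD list gives no WT width or WT bases for its own peaks. Counting immunoglobulin and T cell receptor segments as genes, an alternative chosen after seeing the data, left 1643 regions. No paired analysis was possible because each group has 1 library.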
